A study of Mus musculus with 250 samples.

Results

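Genes that the ERK pathway switches on, or that restrain it and the ErbB receptors above it, were followed through tumor-bearing mice and their matched controls. The 10 genes were Dusp4, Dusp5, Dusp6, Spry1, Spry2, Spry4, Spred1, Etv4, Etv5 and Errfi1, taken by name from the 18194 genes measured, through the probe sets that carried that 1 gene symbol. They had 25 probe sets in all, between 1 and 8 a gene, and the brightest probe set on average stood for its gene.

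The study measured RNA of female FVB mice on Affymetrix whole-genome mouse arrays, 250 arrays in all, to compare mice bearing a Her2/Neu mammary tumor with tumor-free mice in the tumor and in tissues far from it. The tumor-bearing group was bitransgenic for MMTV-rtTA and TetO-NeuNT, so that doxycycline turns on NeuNT, an activated rat Erbb2, where the MMTV promoter drives rtTA. The control group was littermates with TetO-NeuNT only, which carry the transgene without its activator. Both groups drank doxycycline (2 mg/mL, in 5% sucrose) starting at 8 weeks, and the mice were sampled when the tumor measured 1 cm. Breast, liver, spleen, blood cells without plasma, and thymus each gave 25 matched pairs, in which the control was matched to its tumor-bearing mouse by age and cage. The labels do not state the ages themselves.

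ERK is the last kinase of a cascade that runs through Ras, Raf and MEK below receptor tyrosine kinases such as those of the ErbB family. Active ERK turns on transcription factors and, with them, genes whose products shut the cascade down, so that the RNA of these feedback genes is widely used as a readout of pathway output. In mammary epithelium the pathway lies below EGFR, ERBB2 and ERBB3. Of the 10 genes, Etv4 and Etv5 encode ETS transcription factors, Dusp4, Dusp5 and Dusp6 encode phosphatases that remove the activating phosphates from ERK, Spry1, Spry2, Spry4 and Spred1 encode inhibitors that act between the receptor and Raf, and Errfi1 encodes an inhibitor that binds the kinase domain of ErbB receptors.

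Values are log2 of the deposited intensity. A change is the mean log2 difference, tumor-bearing minus matched control, ± its SE over 25 pairs unless another n is given. A gene "rose" or "fell" where limma on the within-pair differences gave a Benjamini-Hochberg adjusted p under 0.05 over all genes of that tissue. Levels are compared only between arrays of 1 tissue and for 1 probe set, since the array medians differed between tissues. In bulk tissue, fewer cells of a type and less RNA per cell cannot be told apart.

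Some arrays stood apart from their group, as judged by the median correlation with the other arrays of that group. This held for 22 of 250 arrays, and results are given with all arrays and, where it changes a count or call, without the pairs that held them. Several went against their labels. The breast control of pair 1 had an epithelial marker mean of 11.77, the median of the tumor-bearing group being 11.73 and that of the controls 9.93, and its Erbb2 signal was 8.64. The tumor-bearing breast of pair 2 had an adipocyte marker mean of 11.83, the medians being 8.62 in the tumor-bearing group and 12.28 in the controls, and a B cell marker mean of 9.81, with medians of 5.15 in the tumor-bearing group and 9.10 in the controls. The spleen controls of pairs 13 and 21 had B cell marker means of 6.31 and 6.36, where the control median was 13.15, and the tumor-bearing spleen of pair 21 had a thymocyte marker mean of 11.35 against a group median of 5.52. The liver control of pair 2 had a median correlation of only 0.336 with the other control livers, and the blood control of pair 9 one of 0.675. In thymus the control of pair 20 had B cell and erythroid marker means of 12.71 and 13.05, and the control of pair 11 a thymocyte marker mean of 6.13 against a group median of 12.1.

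In breast all 10 genes rose. Over all 18194 genes, 30% rose and 32.3% fell in this comparison. The median change of the 10 was 1.31, the median of all genes being -0.03, and the 10 changes ran between 0.65 and 2.85. The mean of the 10 genes was higher in the tumor-bearing mouse in 24 of 25 pairs. Without the 3 pairs that held outlying arrays all 10 rose again, beside 31.8% of all genes that rose and 35.8% that fell.

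The ETS factor genes came at the top and in the middle of that range. Etv5, which encodes a PEA3-family activator, had log2 levels between 8.36 and 11.19 in tumor-bearing breast (median 10.28), against 5.90 to 10.49 in control breast (median 7.29). Only 1 control, that of pair 1, reached the tumor-bearing range, so the groups overlapped through that array alone. The change of 2.85 ± 0.22, a 7.21-fold difference, was the largest of the 10 (higher in 24 of 25 pairs, limma adjusted p = 4.12e-11). Etv4, which encodes another PEA3-family member, lay between 6.38 and 8.35 in tumor-bearing breast (median 7.75), against 5.96 to 7.28 in control breast (median 6.32). The high controls were those of pairs 4 and 1, and Etv4 rose by 1.33 ± 0.12 (24 of 25 pairs, limma adjusted p = 2.41e-10).

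Among the phosphatase genes, the ERK-specific pair changed more than Dusp4. Dusp5, whose product holds ERK in the nucleus, had levels between 7.23 and 9.68 in tumor-bearing breast (median 8.86), against 6.01 to 8.43 in control breast (median 6.44). It rose by 2.25 ± 0.16, or 4.77-fold, in 24 of 25 pairs (limma adjusted p = 2.64e-11). The control of pair 1 was again the highest control, and the tumor-bearing array of pair 2 the lowest of its group. Dusp6, whose product acts on ERK in the cytoplasm, had levels between 10.07 and 12.24 in tumor-bearing breast (median 11.31), against 8.48 to 11.37 in control breast (median 9.30), and rose by 2.04 ± 0.15 (24 of 25 pairs, limma adjusted p = 3.43e-11). The groups overlapped through the control of pair 1 alone. Dusp4, whose product is a nuclear phosphatase of ERK and other MAP kinases, showed more overlap. Its levels lay between 7.47 and 10.01 in tumor-bearing breast (median 8.64), against 6.48 to 9.19 in control breast (median 7.91), and it rose by 0.90 ± 0.19 in 22 of 25 pairs (limma adjusted p = 8.66e-05).

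The Sprouty genes rose less than the phosphatase genes Dusp5 and Dusp6. Spry2 lay between 8.56 and 10.67 in tumor-bearing breast (median 9.96), against 7.12 to 9.76 in control breast (median 8.69), with a change of 1.16 ± 0.11 (24 of 25 pairs, limma adjusted p = 3.12e-10). Spry4 lay between 6.90 and 8.46 in tumor-bearing breast (median 7.48), against 6.33 to 7.80 in control breast (median 6.74), with a change of 0.78 ± 0.10 (23 of 25 pairs). Spry1 had the smallest change of the 10, with levels between 8.99 and 10.14 in tumor-bearing breast (median 9.54), against 7.0 to 9.86 in control breast (median 8.98), and a change of 0.65 ± 0.11 (23 of 25 pairs). In all 3 the control of pair 1 was the highest control.

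Spred1, which encodes a Sprouty-related protein that brings the Ras inactivator neurofibromin to the membrane, had levels between 10.14 and 11.33 in tumor-bearing breast (median 10.88), against 8.04 to 10.89 in control breast (median 9.16). It rose by 1.6 ± 0.12 in 24 of 25 pairs (limma adjusted p = 3.66e-11). Errfi1 lay between 10.98 and 12.01 in tumor-bearing breast (median 11.61), against 7.28 to 11.59 in control breast (median 10.32). The tumor-bearing arrays sat in a narrow band and the controls were spread out, with the control of pair 4 far below the rest. Errfi1 rose by 1.29 ± 0.18 in 24 of 25 pairs (limma adjusted p = 3.99e-07).

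**Figure D1:**
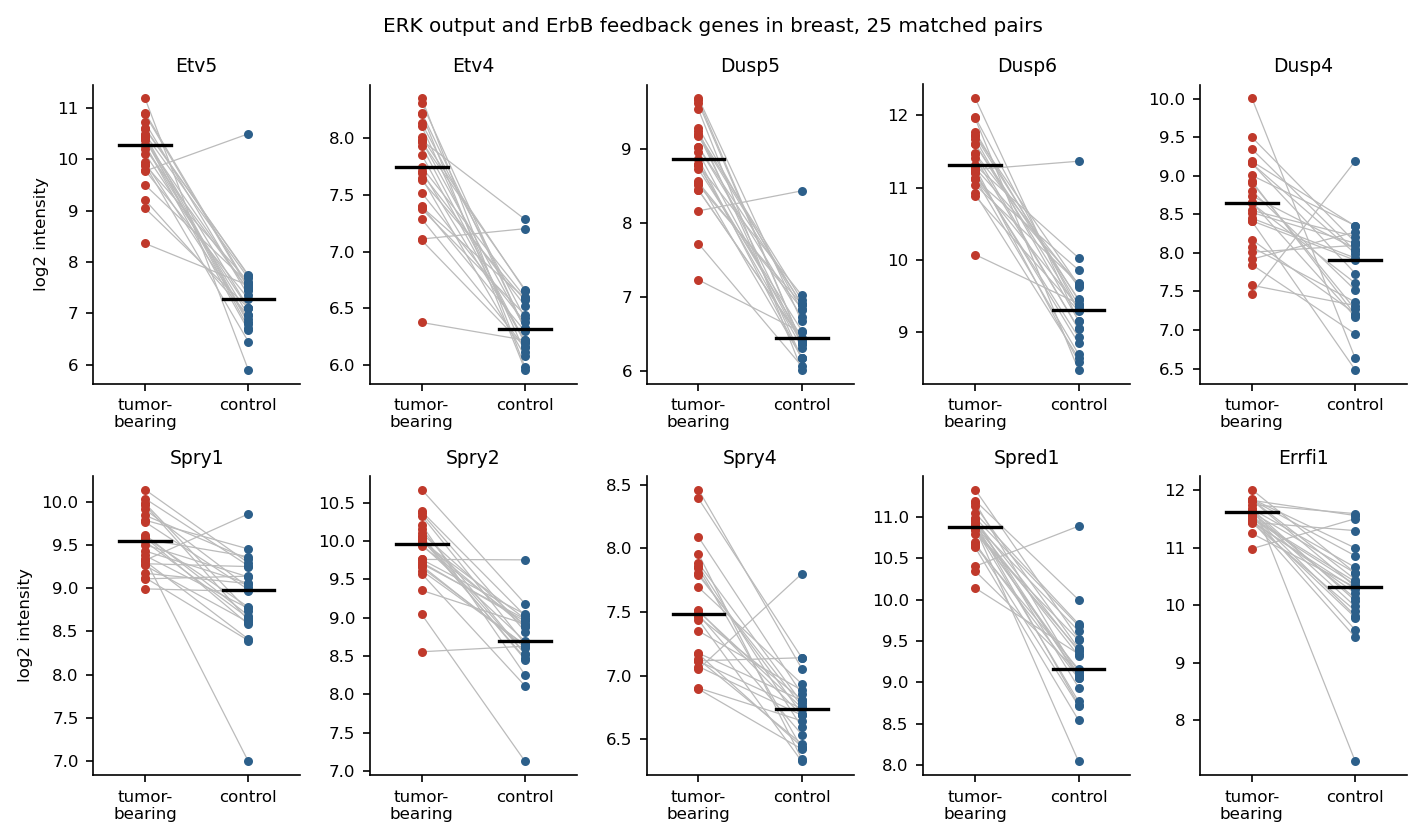
Log2 intensity of the 10 genes in the 25 tumor-bearing (left, red) and 25 control (right, blue) breast arrays, with a grey line for each matched pair and a black bar at each group's median. For Etv5 the medians were 10.28 in tumor-bearing and 7.29 in control breast, and the single control at 10.49 is that of pair 1.

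With all arrays, the tumor-bearing arrays lay wholly above the controls for none of the 10 genes, and for none of the 18194 genes (0%). With pairs 1, 2 and 4 left out, 22 pairs remained. In them the lowest tumor-bearing array lay above the highest control for 5 of the 10 genes, Etv5, Dusp5, Dusp6, Spry2 and Spred1, beside 2.97% of all genes. Without these pairs, Etv5 ran between 9.05 and 10.91 in tumor-bearing breast, against 6.45 to 7.75 in controls.

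The probe sets told the same direction. Of the 25 probe sets of the 10 genes, 24 rose in breast and none fell, beside 30% of all genes, each read by 1 probe set, that rose. The exception was 1 of the 8 Spred1 probe sets (0.08, limma adjusted p = 0.151). The other 7 changed by 0.86 to 1.90, the 3 Etv5 probe sets by 2.66 to 2.85 and the 4 Spry4 probe sets by 0.36 to 1.37.

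The leading digits of the labels' sample IDs, read as dates, split the pairs into an earlier series of 10 and a later series of 15. The labels do not state what these digits mark, so the order in time is an inference. All 10 changes were positive in both. Etv5 changed by 2.28 in the earlier and 3.23 in the later series, and Spry1 by 0.23 and 0.92. In the earlier series 8 of the 10 genes rose, beside 18.2% of all genes, and in the later all 10 did, beside 28%. Pairs 1 and 2 belong to the earlier series.

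Promoter sequences of 7 of the 10 genes are in the RefSeq promoter table (GRCm38.p6), and Dusp4, Spry4 and Etv4 are not listed there. Each sequence runs over 300 bases, and Etv5 and Errfi1 have 2 starts each. They were searched on both strands for the serum response factor motif known as the CArG box, the cyclic AMP response element TGACGTCA, the AP-1 motif TGACTCA or TGAGTCA, the ETS core CCGGAA, and TGAATGAA and TGAATGGA, which the repressor Capicua binds. The 3 promoters with a match are shown with the matched bases in capitals. No match overlapped another, and positions count from the start of the transcript.
Dusp5, chr19:53528895-53529194, plus strand: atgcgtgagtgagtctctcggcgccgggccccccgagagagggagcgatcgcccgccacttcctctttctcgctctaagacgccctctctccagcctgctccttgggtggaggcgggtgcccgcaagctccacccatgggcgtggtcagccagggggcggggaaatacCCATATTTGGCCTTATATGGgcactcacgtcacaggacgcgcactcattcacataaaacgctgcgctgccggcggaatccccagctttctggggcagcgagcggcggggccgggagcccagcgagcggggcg
Errfi1, second start, chr4:150854820-150855119, plus strand: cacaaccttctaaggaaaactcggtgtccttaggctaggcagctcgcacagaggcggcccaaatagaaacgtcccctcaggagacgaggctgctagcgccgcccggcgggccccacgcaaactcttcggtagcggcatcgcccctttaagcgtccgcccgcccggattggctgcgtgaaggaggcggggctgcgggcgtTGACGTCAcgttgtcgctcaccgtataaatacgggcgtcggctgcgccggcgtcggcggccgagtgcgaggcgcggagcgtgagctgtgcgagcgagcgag
Spry2, chr14:105896770-105897069, minus strand: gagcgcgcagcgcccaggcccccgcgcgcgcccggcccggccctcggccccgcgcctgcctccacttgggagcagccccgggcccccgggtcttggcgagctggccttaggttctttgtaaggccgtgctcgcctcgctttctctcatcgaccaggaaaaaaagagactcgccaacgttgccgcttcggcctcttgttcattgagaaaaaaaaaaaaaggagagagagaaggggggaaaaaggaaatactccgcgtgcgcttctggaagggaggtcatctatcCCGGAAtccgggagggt
The Dusp5 promoter held 2 adjoining CArG boxes, which begin at -82 and -72. At least 1 CArG box was present in 1.63% of the 32851 promoters of the table and 2 or more in 0.0183%, or 6 promoters. The Errfi1 promoter held the cyclic AMP response element at -51, a motif found in 1.79% of all promoters, and the Spry2 promoter an ETS core at 34, found in 14.9%. AP-1 motifs were present in 5.20% of all promoters, TGAATGAA in 1.30% and TGAATGGA in 1.21%, and in none of the 9 promoters of the 7 listed genes. A match is a description of the letters and not evidence of binding.

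Other genes of the pathway were described from lists that were chosen with earlier results of these data known. Beside their counts in breast stand 30% of all genes that rose and 32.3% that fell. In breast, 20 of 23 other measured ERK output genes rose and none fell, with a median change of 1.09. The largest were the survival gene Ier3 (3.18 ± 0.24), cyclin D1 (Ccnd1, 2.28 ± 0.21), Phlda1 (2.23 ± 0.21) and the AP-1 subunit gene Junb (2.16 ± 0.24). Other negative regulators were mixed: 13 of 27 rose and 6 fell. Socs5 (2.18 ± 0.16) and the adaptor gene Dok1 (2.14 ± 0.21) rose, and Dusp10, a phosphatase of p38 and JNK, fell (-1.98 ± 0.20). The components of the cascade itself showed no common direction, with 4 of 14 measured that rose, 5 that fell and a median change of -0.03. Nras rose (0.75 ± 0.11), while the scaffold gene Ksr1 (-1.16 ± 0.14) and the ERK-activated kinase gene Mknk2 (-1.54 ± 0.12) fell.

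At the top of the pathway, 2 of 4 ErbB receptor genes rose in breast, Erbb3 (1.54 ± 0.18) and Erbb2 (1.28 ± 0.15). Whether the mouse Erbb2 probe set detects the rat transgene is not stated. Of 10 measured ligand genes, 6 rose and 2 fell. For both lists the shares over all genes were 30% that rose and 32.3% that fell. Hbegf (3.32 ± 0.25), Tgfa (2.19 ± 0.18) and Ereg (1.65 ± 0.33), which encode EGFR ligands, rose, and the neuregulin gene Nrg4 fell (-4.04 ± 0.35).

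The cell make-up of the samples differed between the groups. In breast, 7 of 8 epithelial markers rose, with a summed intensity of 17857 to 52002 in tumor-bearing mice, against 4306 to 41565 in controls. All 5 measured adipocyte markers fell, with sums of 1870 to 37881 in tumor-bearing mice, against 21717 to 59803 in controls. All markers of endothelium (5), T cells (4), B cells (3) and skeletal muscle (4) fell too. The Gapdh 3' to 5' ratio, a sign of RNA quality on the log2 scale, was 0.03 ± 0.45 in tumor-bearing and 0.79 ± 0.78 in control breast (SD, n = 25 each). With that ratio as a covariate all 10 genes still rose, and Dusp4 changed by 0.52. The part of cell make-up in these changes was not tested, but each gene's change can be set beside the change of the epithelial marker mean in the same pair, which was 1.72 ± 0.17. Etv5 changed more than that mean in 24 of 25 pairs (by 1.13 ± 0.12), Dusp5 in 18 pairs (by 0.53 ± 0.15) and Dusp6 in 16 pairs (by 0.32 ± 0.14). The other 7 genes changed less than the epithelial mean on average and exceeded it in between 1 pair (Spry1) and 9 pairs (Etv4). Their differences from it ran between -1.08 ± 0.13 for Spry1 and -0.13 ± 0.10 for Spred1, the last being little more than its SE.

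Within the 25 tumor-bearing breast arrays, the level of most of the genes followed the Erbb2 signal. Erbb2 lay between 7.39 and 8.94 there. It was read from a mouse probe set, and whether that probe set detects the rat NeuNT transgene is not stated. The design set 20 relations, each of the 10 genes against Erbb2 and against the epithelial marker mean, with p-values adjusted over the 20. In all, 8 genes followed Erbb2 at an adjusted permutation p under 0.05 for Pearson's r, the lowest of these r being 0.45, and 16.7% of all other genes had an r at or above it. Spry4 followed it most closely (Pearson r = 0.79, Spearman rho = 0.86, adjusted p = 0.0002 for each, from permutation p = 1e-05, the smallest value that this number of permutations allows), and with the 2 arrays farthest from the Erbb2 median left out r was 0.79. Its r was 0.84 within the earlier ID series and 0.76 within the later. Etv5 came next (Pearson r = 0.77, permutation p = 2e-05, adjusted p = 0.0002, and Spearman rho = 0.71, permutation p = 0.00011, adjusted p = 0.0011). Its r was 0.62 without the 2 farthest arrays and 0.81 and 0.65 within the series. By Spearman's rho 7 of the 10 genes passed, Spred1 being the difference, beside 12.4% of all genes at or above the lowest rho among them. With pairs 1, 2 and 4 left out, 22 arrays remained, although only the tumor-bearing array of pair 2 was itself outlying. Of the 10 genes, 7 then passed by Pearson's r (13.4% of all genes at or above the lowest) and 6 by Spearman's rho (11.4%).

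Errfi1 and Dusp5 were the genes that missed the threshold. For Errfi1 Pearson r was 0.21 (permutation p = 0.318, adjusted p = 0.318) and Spearman rho -0.08 (permutation p = 0.701), with r = 0.63 in the earlier and 0.05 in the later series. For Dusp5 Pearson r was 0.36 (permutation p = 0.0742, adjusted p = 0.0873) and Spearman rho 0.06 (permutation p = 0.781), with r = 0.76 in the earlier and -0.34 in the later series. The relation of Spred1 rested on few arrays, since r was 0.45 with all arrays and 0.18 without the 2 farthest. Dusp6 had r = 0.65 with all arrays and 0.35 without the 2 farthest, and Spry2 0.69 and 0.43. Within the earlier and later series, r was 0.87 and 0.31 for Dusp4, 0.81 and 0.38 for Dusp6, and 0.69 and 0.23 for Spred1. In the same order it was 0.25 and 0.64 for Etv4, 0.39 and 0.75 for Spry1, and 0.76 and 0.61 for Spry2. Within-pair differences, which also carry the make-up of the controls, gave other values against the Erbb2 difference. There r was 0.73 for Errfi1, 0.87 for Spred1 and 0.56 for Dusp5. Without the 2 farthest pairs it was 0.64, 0.79 and -0.03.

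Against the epithelial marker mean, 8 of the 10 genes passed by Pearson's r and 4 by Spearman's rho with all arrays, beside 14.9% and 9.01% of all other genes at or above the lowest value among them. Over the 22 arrays without pairs 1, 2 and 4, 1 passed by Pearson's r, beside 6.53% of all genes, and 0 by Spearman's rho. That 1 was Dusp5, with Pearson r = 0.75 over all arrays (permutation p = 3e-05, adjusted p = 0.0002, Spearman rho = 0.63, permutation p = 0.00102, adjusted p = 0.0034). Its r was 0.65 without the 2 farthest arrays, 0.79 in the earlier and 0.69 in the later series, and 0.52 over the 22 arrays. Among the genes themselves, 28 of 45 pairs were correlated by Pearson's r at an adjusted permutation p under 0.05. All of these were positive, and the median Pearson r of the 45 was 0.53. The lowest r called was 0.45, and 9.37% of all pairs of the 18194 genes had an r at or above it. Fewer pairs passed by Spearman's rho. Those lost were Dusp5 with Dusp4, Dusp6 and Etv5, and Spred1 with Dusp6 and Etv5. Their Pearson r, 0.45 to 0.53 with all arrays, was 0.05 to 0.30 without the 2 farthest arrays. Dusp6 and Etv5 were the closest pair by Pearson's r over all arrays (Pearson r = 0.79, permutation p = 1e-05, adjusted p over the 45 of 0.000225, and Spearman rho = 0.71, permutation p = 0.00015). Their r was 0.64 without the 2 farthest arrays and 0.82 and 0.67 within the earlier and later series. By Spearman's rho Spry4 and Etv5 were closest (rho = 0.86, permutation p = 1e-05, adjusted p = 0.00015), and their Pearson r was 0.75 with all arrays and 0.79 without the 2 farthest. Errfi1 had 2 of its 9 relations past the threshold by Pearson's r, those with Dusp5 and Spred1, and r between -0.12 and 0.66. By Spearman's rho these passed as well (0.53 and 0.61), and Dusp5 too passed with Spred1 and Errfi1 only. Within the earlier series r for Errfi1 ran between 0.23 (Etv4) and 0.94 (Spry2). In the later series it ran between -0.51 (Spry2) and 0.58 (Dusp5).

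**Figure D2:**
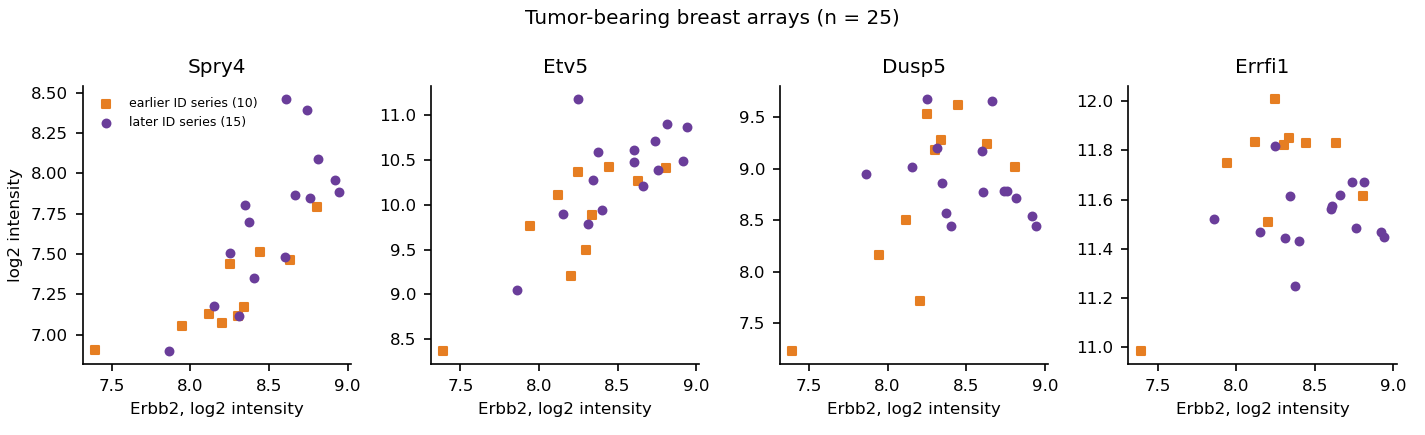
Log2 intensity of Spry4, Etv5, Dusp5 and Errfi1 against that of Erbb2 in the 25 tumor-bearing breast arrays, with orange squares for the earlier and purple circles for the later ID series. Pearson r was 0.79 for Spry4, 0.77 for Etv5, 0.36 for Dusp5 and 0.21 for Errfi1, and the array at the far left is that of pair 2.

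Among all genes, those whose within-pair differences over the 25 breast pairs were most like a member's were named by Pearson's r, as a description, since the points share the breast samples and their make-up. Dusp6 was nearest to Etnk1 (0.90), Galnt10 (0.89) and Etv5 (0.88). Etv5 was nearest to Crybg1 (0.94), Galnt10 (0.93) and Slc35a1 (0.93). Spred1 was nearest to Crispld2 (0.94), and Errfi1 to the transcription factor gene Cebpd (0.92). The closest neighbour of each of the 10 genes had an r between 0.85 (Rangap1, for Etv4) and 0.94.

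In liver 2 of the 10 genes rose and none fell, beside 7.89% of all genes that rose and 2.28% that fell. Dusp5 lay between 6.08 and 6.71 in tumor-bearing liver (median 6.33), against 4.92 to 6.78 in control liver (median 6.0), and rose by 0.39 ± 0.08 (22 of 25 pairs, limma adjusted p = 0.000949). Spred1 lay between 7.84 and 9.04 in tumor-bearing liver (median 8.59), against 7.49 to 8.75 in control liver (median 8.35), and rose by 0.26 ± 0.07 (23 of 25 pairs, limma adjusted p = 0.0178). The groups overlapped for both. Dusp5 changed by 0.38 in the earlier and 0.40 in the later ID series, and passed in the later only, and Spred1 by 0.41 and 0.15, past the test in neither. The Spred1 call rests on 1 of its 8 probe sets, since the other 7 changed by -0.37 to 0.17 and the lowest of these fell.

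Errfi1 had levels between 12.43 and 13.76 in tumor-bearing liver (median 13.57), against 5.42 to 13.74 in control liver (median 13.21), and its change of 0.53 ± 0.30 did not pass. The low value is the control of pair 2. With the 5 pairs that held outlying arrays left out, 5 genes rose, beside 18.6% of all genes that rose and 18.9% that fell. They were Dusp5 (0.34 ± 0.06), Errfi1 (0.32 ± 0.10), Etv5 (0.31 ± 0.07), Spred1 (0.22 ± 0.04) and Spry1 (0.14 ± 0.06), each over 20 pairs. With all arrays the other 2 Etv5 probe sets changed by -0.01 and -0.17 in liver, against 0.14 for the one used, and none of the 3 passed. Of the rest of the pathway, 6 of 23 other ERK output genes rose in liver, beside 7.89% of all genes with all arrays. Junb (1.38 ± 0.17) and Fos (1.11 ± 0.15) led them, and the receptor gene Egfr rose (1.34 ± 0.22, 25 of 25 pairs). All 5 measured neutrophil markers rose in liver, with summed intensities of 1090 to 31620 in tumor-bearing mice, against 222 to 628 in controls, and their part in these changes was not tested.

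In spleen the genes split, with 3 that rose and 4 that fell, beside 22.4% and 18.3% of all genes. The median change of the 10 was -0.02, and that of all genes 0.001. Errfi1 fell most. Its levels lay between 7.73 and 10.12 in tumor-bearing spleen (median 8.48), against 8.95 to 12.65 in control spleen (median 9.49). The groups overlapped, and the highest controls were those of pairs 21 and 13. Errfi1 fell by 1.37 ± 0.22 and was higher in the tumor-bearing mouse in 2 of 25 pairs (limma adjusted p = 4.87e-06), and without pairs 9, 13 and 21 it fell by 1.10 ± 0.16 over 22 pairs.

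Dusp4 lay between 6.30 and 9.14 in tumor-bearing spleen (median 6.57), against 6.86 to 7.81 in control spleen (median 7.19). The tumor-bearing array at 9.14 is that of pair 21. Dusp4 fell by 0.53 ± 0.13 (lower in 23 of 25 pairs, limma adjusted p = 0.00114). Etv5 lay between 6.75 and 7.80 in tumor-bearing spleen (median 7.30), against 6.69 to 8.82 in control spleen (median 7.88), and fell by 0.51 ± 0.08 (lower in 22 of 25 pairs, limma adjusted p = 2.59e-06). Dusp6 lay between 10.14 and 10.81 in tumor-bearing spleen (median 10.64), against 10.0 to 11.5 in control spleen (median 10.93), and fell by 0.30 ± 0.05 (lower in 22 of 25 pairs, limma adjusted p = 7.02e-06). The 3 Etv5 probe sets fell by between 0.43 and 0.51, and the Errfi1 probe sets by 1.37 and 1.28. Errfi1 changed by -1.26 in the earlier and -1.44 in the later ID series and Etv5 by -0.50 and -0.51, each past the test in both. Dusp4 changed by -0.61 and -0.47 and passed in the earlier series only.

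The 3 genes that rose in spleen changed less. Spry4 changed by 0.26 ± 0.07 (21 of 25 pairs), Etv4 by 0.22 ± 0.06 (20 pairs) and Spred1 by 0.14 ± 0.05 (19 pairs, limma adjusted p = 0.0388). Spry4 and Etv4 passed the test in the earlier ID series alone, and none of the 3 in the later. Their groups overlapped, and their other probe sets changed by between -0.06 and 0.18. Without the pairs that held outlying arrays, all 10 genes were called in spleen, 5 higher and 5 lower, beside 28.9% of all genes that rose and 26.4% that fell. The additional calls were Dusp5 (-0.34 ± 0.06, lower in 20 of 22 pairs), Spry1 (0.26 ± 0.04) and Spry2 (0.24 ± 0.06).

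Across the other lists in spleen, 11 of 27 negative regulators fell and 3 rose, beside 18.3% of all genes that fell and 22.4% that rose. Dusp7, whose product acts on ERK, fell (-0.42 ± 0.05), and Dusp8 rose (0.66 ± 0.08). Of 23 other ERK output genes, 7 rose and 1 fell, beside the same shares, with Fosl2 (1.4 ± 0.15) and Ier3 (0.93 ± 0.21) the largest. All 5 neutrophil markers rose in spleen, with sums of 8263 to 115522 in tumor-bearing mice, against 1641 to 54358 in controls, and all 3 measured erythroid markers rose. The B cell marker sum had a median of 17150 in tumor-bearing and 28411 in control spleen, with none of its 3 markers called. The part of this make-up in the split was not tested.

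**Figure D3:**
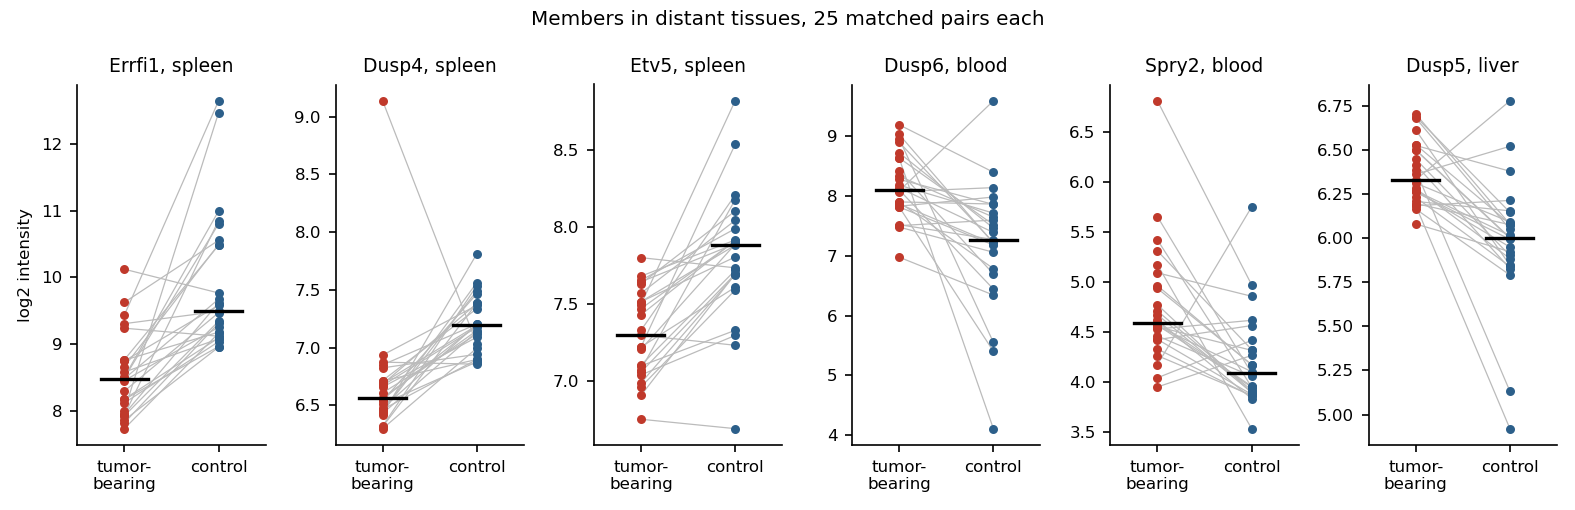
Log2 intensity in 25 tumor-bearing (left, red) and 25 control (right, blue) arrays for Errfi1, Dusp4 and Etv5 in spleen, Dusp6 and Spry2 in blood and Dusp5 in liver, with grey lines for matched pairs and black bars at the medians. Errfi1 in spleen had medians of 8.48 in tumor-bearing and 9.49 in control mice, and the tumor-bearing spleen of pair 21 is the single high Dusp4 value at 9.14.

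In blood cells 2 of the 10 genes rose and none fell, beside 8.66% of all genes that rose and 4.27% that fell. Of all called genes in blood, 67% were higher, and 55.7% with quantile normalization. Dusp6 lay between 6.98 and 9.19 in tumor-bearing blood (median 8.10), against 4.11 to 9.59 in control blood (median 7.27), and rose by 0.98 ± 0.24 (21 of 25 pairs, limma adjusted p = 0.00445). The lowest control is that of pair 9. Spry2 lay between 3.95 and 6.81 in tumor-bearing blood (median 4.59), against 3.53 to 5.75 in control blood (median 4.09), and rose by 0.55 ± 0.14 (20 of 25 pairs, limma adjusted p = 0.00777). These Spry2 levels are close to the floor of 3.5. The other Spry2 probe set lay farther above the floor, with medians of 5.14 in tumor-bearing and 5.28 in control blood. It changed by 0.01, so the Spry2 call rests on 1 of its 2 probe sets.

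Both calls held without pairs 9 and 13 (Dusp6 0.73 ± 0.17, Spry2 0.53 ± 0.15, 23 pairs), beside 10.3% of all genes that rose and 11.5% that fell. Dusp6 changed by 1.10 in the earlier and 0.91 in the later ID series and Spry2 by 0.51 and 0.58, without passing the test in either series alone. Etv5 stood at the floor in 23 tumor-bearing and 15 control blood arrays. In the other lists, the ERK output genes Fosl2 (2.13 ± 0.19, 25 of 25 pairs) and Ier3 (1.64 ± 0.26) and the phosphatase gene Dusp16 (1.24 ± 0.18, 25 of 25 pairs) rose, as did the cascade genes Sos2 (1.13 ± 0.21) and Braf (0.69 ± 0.11). All 5 neutrophil markers rose in blood, with sums of 15266 to 64514 in tumor-bearing mice, against 317 to 10151 in controls, and all 3 measured B cell markers fell. Their part in the changes of Dusp6 and Spry2 was not tested.

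In thymus none of the 10 genes passed the test in limma, beside 0.011% of all genes that rose and 0% that fell. The 10 changes lay between -0.07 and 0.30. At an unadjusted p under 0.05, 1 of the 10 (Spry1) and 4.16% of all genes were past the threshold. The largest was Spry1, with levels between 7.72 and 9.96 in tumor-bearing thymus (median 8.40), against 7.62 to 9.16 in control thymus (median 8.16), and a change of 0.30 ± 0.13 (18 of 25 pairs, limma adjusted p = 0.995). Without the 7 pairs that held outlying arrays none of the 10 passed either, beside 0.357% of all genes that rose and 0% that fell.

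**Figure D4:**
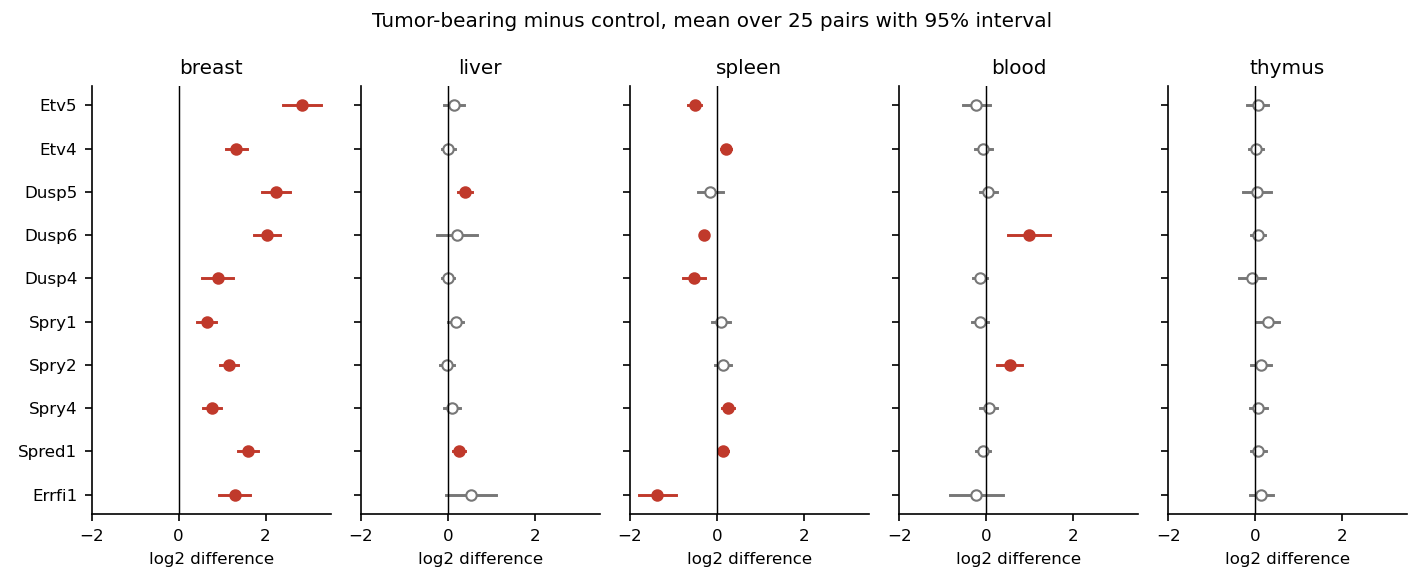
Mean log2 difference, tumor-bearing minus control, of the 10 genes in each tissue over 25 pairs, with the 95% interval as a bar. Filled red points passed an adjusted p under 0.05 and open grey ones did not. All 10 genes lie right of 0 in breast, while Errfi1 is at -1.37 in spleen and Dusp6 at 0.98 in blood.

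The difference between tissues was tested on the within-pair differences of all 125 pairs. The breast change lay above the mean of the other tissues for all 10 genes, beside 22.7% of all genes that lay above it and 26.6% that lay below. The excess ran between 0.53 ± 0.12 for Spry1 and 2.98 ± 0.16 for Etv5. Among liver, spleen, blood and thymus (100 pairs), the change differed for 5 of the 10 genes, beside 29.1% of all genes. With all arrays Errfi1 differed most (limma adjusted p = 2.02e-05), with changes of -1.37 in spleen, -0.22 in blood, 0.15 in thymus and 0.53 in liver. Dusp6 followed (limma adjusted p = 8.24e-05), at -0.30 in spleen, 0.06 in thymus, 0.21 in liver and 0.98 in blood. Without the outlying arrays the change differed for 9 of the 10 genes, all but Spry4, beside 56.9% of all genes. The order changed, with Dusp4 first (limma adjusted p = 2.49e-08), then Dusp6 (6.54e-08) and Dusp5 (1.38e-06), and Errfi1 after these (1.80e-05).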

How the data were processed

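The values are probe set intensity on a linear scale, deposited by the authors after summarisation and normalization by methods that no label or header states. RNA was extracted with Trizol and labelled with a one-cycle kit, per the labels' protocols. A floor was set at the 5th percentile of the 45101 probe sets' values over all arrays (11.3), followed by log2. Of 45101 probe sets, 34958 had 1 gene symbol, 932 several and 9211 none. Symbols were updated by Entrez number (34754 matched, 204 kept as listed), and 18194 genes were tested. The number of arrays limits the precision.

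Within-pair differences were tested with limma 3.58.1 in R 4.3.3, moderated by empirical Bayes, and p-values were adjusted per tissue over all genes by Benjamini-Hochberg. The test was tried on simulated data first. Pairs come from the mates the labels name. After group means were removed, the median correlation of mates was lowest in breast (0.08), followed by spleen (0.15), blood (0.22), thymus (0.25) and liver (0.31). Arrays counted as outlying where their median correlation with their group lay more than 5 median absolute deviations below the group's median. Correlations used 100000 permutations. Named were all 10 members, Erbb2, up to 4 called genes with the largest change per pathway list and tissue, the nearest genes and marker lists. The members and lists were chosen with earlier results of these data known, and leaving out outlying pairs 1 at a time was added after seeing the data.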

Additional observations from a re-analysis of the deposited data

Results flagged for a closer look

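Each value here comes from a test of the difference between tissues. The breast change exceeded the mean change of the other 4 tissues by 2.98 for Etv5, 2.17 for Dusp5, 1.80 for Dusp6, 1.52 for Errfi1 and 1.5 for Spred1. The excess was 1.28 for Etv4, 1.08 for Dusp4, 0.96 for Spry2, 0.65 for Spry4 and 0.53 for Spry1. Among liver, spleen, blood and thymus, the change differed with a limma adjusted p of 2.02e-05 for Errfi1, 8.24e-05 for Dusp6, 0.00331 for Etv5, 0.0127 for Spry2 and 0.0236 for Dusp4.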

How the results depend on the processing

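All 10 genes rose in breast under every alternative run except the earlier ID series alone and the fit without genes under the tissue median, each with 8 (8 were tested in that fit). Without the replicate block, 6 of the genes were called in spleen, 10 in breast, 2 each in blood and liver and 0 in thymus, and Spred1 in spleen was the lost call (limma adjusted p = 0.0598). The block changed no other call of the 10 genes.

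With the pairs that held outlying arrays left out, 5 of the genes were called in liver and 9 differed among the distant tissues. In the same setting 1 followed the epithelial marker mean. Calls over all genes were then 6830 in liver, 3968 in blood and 65 in thymus. Without genes under the tissue median, 1 of the 10 was called in liver, 3 in spleen and 1 in blood (5, 5 and 6 were tested), and over all genes 6931 in breast, 1176 in liver and 4 in thymus. In the earlier ID series (10 pairs) none of the 10 was called in liver or blood (0 each), with 7054 calls over all genes in breast, 95 in liver, 317 in blood and 0 in thymus. In the later series (15 pairs) 1 was called in liver, 3 in spleen and 0 in blood, with 4329 calls over all genes in liver, 4759 in spleen and 12 in thymus. In liver 1 of the 10 was called with quantile normalization and 1 with the mean of all probe sets of a gene, and 3483 genes with the Gapdh ratio as a covariate. In blood 1 was called with a floor of 32, which takes Spry2 near the floor, and in thymus 1 gene of all without the _x_at and _s_at probe sets. Leaving out outlying pairs 1 at a time gave between 1768 and 3393 calls over all genes in liver, the highest without pair 2, and between 0 and 21 in thymus, the highest without pair 20. Without pair 13, Spry1 and Spry2 in spleen passed as well. The changes of Spred1 on other probe sets had the opposite sign in liver (-0.0439, -0.366, -0.0920 and -0.00190) and spleen (-0.0591, -0.00514 and -0.00456). Counts of the 10 genes in this section that stand without a share over all genes are set only against the main calls of the same genes. Except where the settings test fewer genes or pairs, the cause was not tested.

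Signal near the floor limits Spry2, Etv5, Dusp4 and Errfi1 in blood on the probe sets used. It also limits Dusp4 in liver (medians 4.59 in tumor-bearing and 4.56 in control mice). The other Errfi1 probe set had blood medians of 6.63 in tumor-bearing and 6.66 in control mice and changed by -0.13, without passing. Probe sets differ most for Spred1, Spry2 and Spry4. The pairs number 25 a tissue, and the tests between tissues treat all pairs as independent. With ID clusters as a random block, 5 genes differed among the distant tissues and all 10 in breast.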

Other observations

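The blood control of pair 16 was not counted as outlying but differed from its mate and from the other controls in several of the genes. Etv5 stood at the floor of 3.5 in the tumor-bearing blood of pair 16 and at 7.28 in its control, where the median of the control bloods was the floor. Errfi1 stood at 3.92 in the tumor-bearing blood and at 7.25 in the control, where the control median was 4.24. High Errfi1 was not particular to that control, since those of pairs 6 (8.04), 20 (6.88), 24 (6.52) and 8 (6.24) were high as well. Dusp6 stood at 8.08 in the tumor-bearing blood of pair 16 and at 9.59 in its control, the highest of the blood arrays.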
